A study of Arabidopsis thaliana with 4 samples.

Results

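The 5 gene models described here are models of Arabidopsis thaliana on the strand opposite to 4 cell wall genes and 1 cutin gene, with some of the highest FPKM values of a seedling RNA table. They were chosen by locus code, with their FPKM values known, as abundant rows lying opposite a cell wall or cuticle gene, and they make up 5 of the 32823 rows. FPKM is the number of fragments divided by transcript length in kilobases and by the library's number of mapped fragments, so levels of different rows can be set side by side per length. The rows are AT3G22121, opposite CWLP; AT1G21313, opposite EXT3; AT1G55335, opposite AGP21; AT5G64572, opposite XYL4; and AT4G03585, opposite CYP86A2. Their high level is what they were chosen for and is not a finding.

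The table holds 4 libraries of whole seedlings in the Col-0 background, with 1 library for WT without heat (WT control), 1 for WT with heat, 1 for miR164OE without heat (miR164OE control) and 1 for miR164OE with heat. Where values follow each other below, they stand in this order. WT is the wild type, and miR164OE is a transgenic line overexpressing miR164, a microRNA that cuts the mRNAs of NAC transcription factors such as CUC1 and CUC2. Neither the promoter of the transgene nor the number of lines used is given in the sources used here. All plants grew at 22 °C with 16 h of light and 8 h of dark, and heat was 35 °C for 5 days, begun on seedlings 5 days old. The age of the control seedlings is not given in the sources used here. There were no replicates, so each difference below is between single libraries, has no estimate of the spread between plants and has no p-value. A row was called higher or lower where log2(FPKM + 1) differed by at least 1 between libraries, which is 2-fold. In whole seedlings, fewer cells of a type and less RNA per cell cannot be told apart.

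The plant cell wall is a network of cellulose, matrix polysaccharides and hydroxyproline-rich glycoproteins that sets how far a cell can expand. Extensins and other proline-rich proteins are structural proteins of the wall, arabinogalactan proteins are heavily glycosylated proteins at the plasma membrane and in the wall, and glycosidases trim wall polysaccharides. The outer walls of the shoot epidermis are covered by the cuticle, which is built of the polyester cutin and of waxes and limits water loss. Antisense gene models on the other strand of such genes are annotated as long non-coding RNAs or as short predicted coding models, and no function is given for the 5 models in the annotation used here.

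In these data every base of the 5 rows lay inside exons of the gene opposite. All coordinates are TAIR10. AT3G22121, annotated as a long non-coding RNA (chromosome 3, 7794956 to 7796327, plus strand), covered 80.6% of the exon bases of CWLP and 99.0% of its coding bases. CWLP (AT3G22120) is a proline-rich protein named as a cell wall-plasma membrane linker. AT1G21313, annotated as a partial coding model (chromosome 1, 7453735 to 7454256, plus strand), lay wholly within the coding bases of EXT3 (AT1G21310), an extensin needed for normal cell plates in the embryo, and covered 37.3% of them. AT1G55335, also a partial coding model (chromosome 1, 20648469 to 20648832, plus strand), spanned the whole coding region of AGP21 (AT1G55330), a short arabinogalactan protein.

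AT5G64572, a long non-coding RNA (chromosome 5, 25810298 to 25811733, plus strand), lay within the coding bases of XYL4 (AT5G64570), a beta-D-xylosidase that removes xylose from wall polysaccharides, and covered 56.4% of them. AT4G03585, a long non-coding RNA (chromosome 4, 162041 to 162822, minus strand), lay towards the 3' end of CYP86A2 (AT4G00360), a cytochrome P450 that hydroxylates fatty acids for cutin, with 94.4% of its bases opposite coding bases. The rows had 1372, 483, 364, 1366 and 782 exon bases for AT3G22121, AT1G21313, AT1G55335, AT5G64572 and AT4G03585. The 3' end of AT1G55335 lay 59 bases and that of AT4G03585 1398 bases from the start of the gene opposite, so the rows share no fixed distance from that start.

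**Figure D1:**
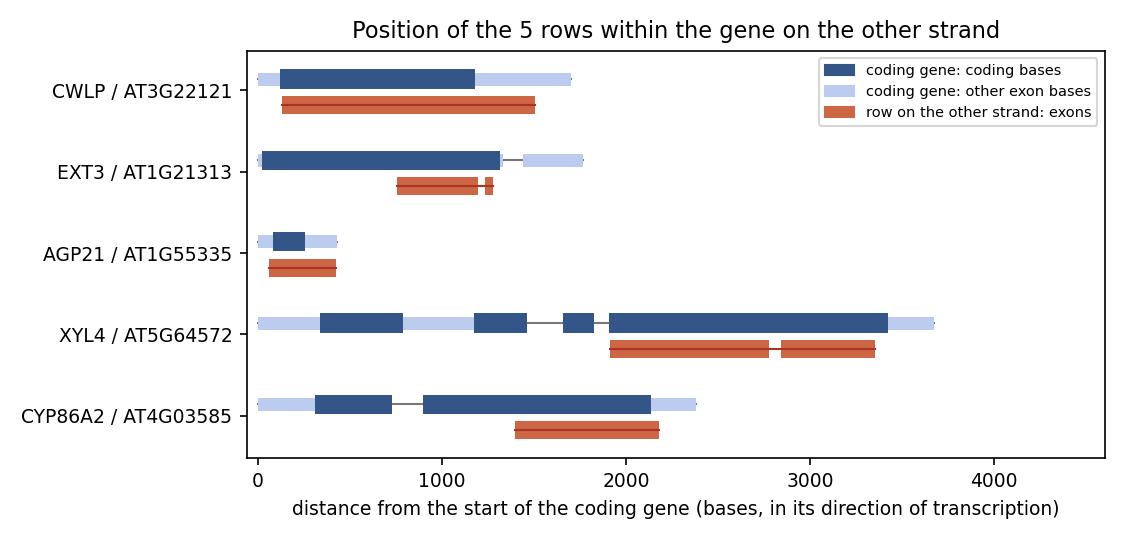
Map of the 5 rows within the coding genes opposite, with distance in bases from the start of the coding gene on the x axis, coding bases in dark blue, other exon bases in light blue and exons of the row on the other strand in orange. AT1G55335 spans all coding bases of AGP21, while AT1G21313 covers 37.3% of those of EXT3.

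Only AT1G21313 and AT5G64572 have an intron, and in both it falls where the gene opposite has continuous exon. These introns are shown because spliced fragments would be specific to a strand, although the table gives no fragments by splice site. Both begin with GT and end with AG, the usual intron ends, read on the strand of the row. They are 39 and 70 bases long. The stretches below come from the TAIR10.1 RefSeq genome, 5' to 3' on the plus strand, at chr1:7453751-7453839 and chr5:25810780-25810899, with the first and last pair of intron bases in capitals.
AT1G21313 intron: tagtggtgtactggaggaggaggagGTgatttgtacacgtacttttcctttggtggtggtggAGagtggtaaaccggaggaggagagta
AT5G64572 intron: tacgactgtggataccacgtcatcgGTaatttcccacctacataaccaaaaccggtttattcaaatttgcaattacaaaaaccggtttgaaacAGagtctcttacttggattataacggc

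AT1G55335 holds the whole AGP21 coding region in reverse complement. It is shown because each base of this stretch belongs to both rows, so that only strand can assign an unspliced fragment to one of them. It is printed on the plus strand, the strand of AT1G55335, at chr1:20648634-20648810, with the reverse complements of the AGP21 stop codon (first) and start codon (last) in capitals.
AGP21 coding region: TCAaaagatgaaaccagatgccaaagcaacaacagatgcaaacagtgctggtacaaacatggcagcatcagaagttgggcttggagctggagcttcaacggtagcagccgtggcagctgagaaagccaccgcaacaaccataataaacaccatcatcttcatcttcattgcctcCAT

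AT1G21313 alone among the 5 rows held sequence found more than once in the genome. Of its 393 windows of 50 bases, 60 (15.3%) had another copy, and all 60 had their copies inside the EXT3 gene, whose protein is built of repeated motifs. The other 4 rows had 0 such windows among 1323, 315, 1268 and 733. The stretch with most repeated bases is shown because a read lying wholly within a repeated window has more than one place to align. Only windows of 50 bases were examined, so longer or paired reads may have a single place. The stretch is at chr1:7453832-7454071 on the plus strand, with bases of repeated windows in capitals.
AT1G21313 repeat: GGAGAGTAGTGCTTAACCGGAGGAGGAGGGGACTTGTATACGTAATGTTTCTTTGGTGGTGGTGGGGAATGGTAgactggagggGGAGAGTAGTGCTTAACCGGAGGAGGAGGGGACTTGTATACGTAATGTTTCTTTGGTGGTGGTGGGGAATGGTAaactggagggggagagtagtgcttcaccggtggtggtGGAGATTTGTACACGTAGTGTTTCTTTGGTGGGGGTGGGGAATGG

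The highest of the 5 rows was AT3G22121, opposite CWLP. In WT it had 106072 FPKM without heat and 45970 with heat, and in miR164OE 95077 without and 37878 with heat. It ranked 4th of all rows by its mean over the libraries. Both controls were above both heat libraries. Alone it held 5.58% of all summed FPKM in WT control and 3.55% in miR164OE heat.

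AT1G21313, opposite EXT3, stood at 7124 FPKM without heat and 12553 with heat in WT, and at 18345 and 12867 in miR164OE. Here the controls lay on either side of the heat libraries, with WT control lowest and miR164OE control highest. It ranked 16th by its mean.

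In AT1G55335, opposite AGP21, the WT libraries had 7875 FPKM without and 5013 with heat, and the miR164OE libraries 8518 and 6738. Both controls were again above both heat libraries. Its highest value was 1.70 times its lowest, the narrowest range of the 5 rows, against 2.80 times for AT3G22121.

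AT5G64572, opposite XYL4, went from 5911 FPKM without heat to 2330 with heat in WT, and from 4839 to 3167 in miR164OE. AT4G03585, opposite CYP86A2, went from 8909 to 4134 FPKM in WT and from 10405 to 4088 in miR164OE. In both rows the controls were above the heat libraries, and for AT4G03585 the heat libraries lay close together. Per length, AT5G64572 was the lowest of the 5 rows and AT3G22121 the highest in every library. The order of the other 3 changed between libraries, and with 1 library per group it is not known which of these neighbours differ beyond the spread between plants.

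Of all summed FPKM the 5 rows together held 7.15% without heat and 6.16% with heat in WT, and 6.92% and 6.07% in miR164OE. In the same order, 1 fragment on a row of 1 kb was worth about 1.99, 1.74, 2.33 and 1.21 FPKM, judged from the most frequent value among low rows. By this estimate the rows rested on about 1047 (AT1G55335 in WT heat) to 73221 (AT3G22121 in WT control) fragments per library. The estimate is approximate, above all for AT1G55335 and AT1G21313, because Cufflinks shortens the length of short rows by an amount that is not stated. Of 199 rows whose mean reached 1000 FPKM, 192 overlapped exons of a gene on the other strand. The share of all rows with such an overlap was not counted, so it is not known whether the overlap is particular to high rows. All 3 precursor rows of miR164 (MIR164a, MIR164b and MIR164c) were listed at 0 throughout and give no check of the genotype labels.

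The rows of the coding genes themselves were far lower. CWLP had 56.2 FPKM without and 50.8 with heat in WT, and 23.4 and 71.2 in miR164OE, which is 0.0530%, 0.111%, 0.0246% and 0.188% of AT3G22121. EXT3 had 9.86, 12.2, 4.44 and 24.6 FPKM in the same order. These are 0.138%, 0.0975%, 0.0242% and 0.191% of AT1G21313, so that for both genes the share was lowest in miR164OE control and highest in miR164OE heat.

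The AGP21 row was at 12.3 FPKM without and 7.44 with heat in WT, was listed at 0 in miR164OE control, and was at 5.12 in the heated miR164OE library. The CYP86A2 row was at 13.4 and 5.62 FPKM in WT and at 4.91 and 8.82 in miR164OE. XYL4 stood apart from the other coding rows with 64.8, 65.7, 68.8 and 63.6 FPKM in the same order, which is 1.097%, 2.82%, 1.42% and 2.01% of AT5G64572. On this scale the row opposite spanned 2.54-fold over the libraries. With nuclear rows brought to a common sum in every library, a rescaling that raises the heat libraries, XYL4 was at 51.3, 89.4, 52.3 and 92.9 and AT5G64572 at 4680, 3167, 3675 and 4624, spans of 1.81-fold and 1.48-fold. Which of the pair varied more thus depended on the scaling.

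The values of the AGP21 row correspond to about 2.65, 1.82, 0 and 1.81 fragments, and those of the EXT3 row to 8.20, 11.6, 3.15 and 33.6. Whether fragments were assigned to rows by strand is not given in the sources used here, although the library kit is strand-specific per the labels. Unspliced RNA of a coding gene and of the row opposite can therefore not be told apart, and the 5 rows are not shown to measure antisense RNA. If a stranded library was counted with the opposite setting, RNA of a coding gene would stand on the row opposite it, and the gene's own row would hold the remainder. This was not tested, so the values of own rows here, tissue markers included, are what the table lists for these rows and are not shown to be the levels of the genes they are named for.

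**Figure D2:**
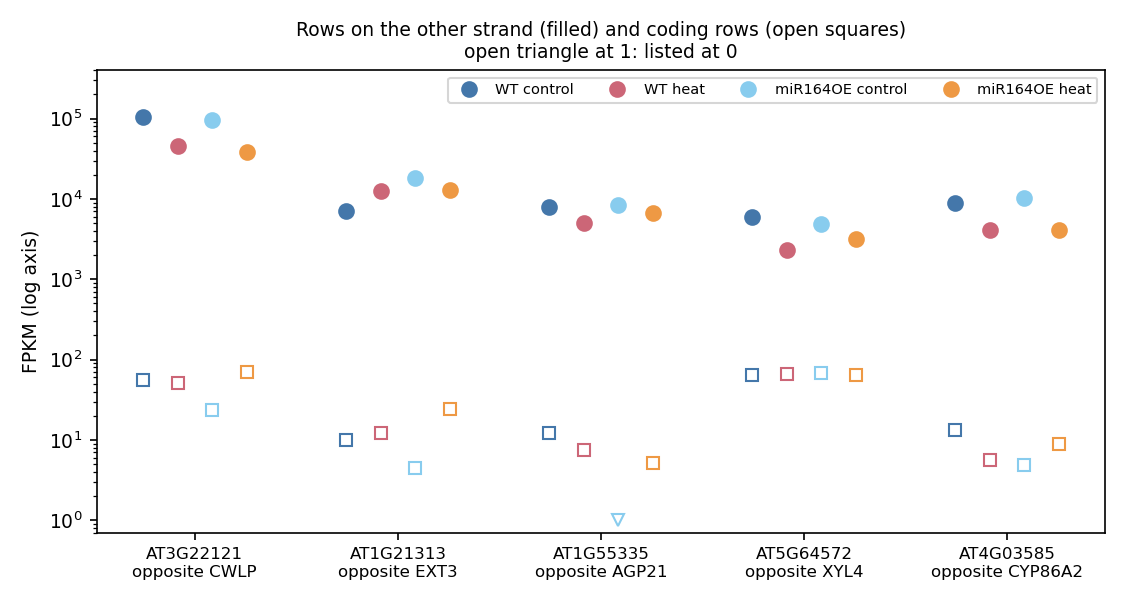
FPKM on a log axis in the 4 libraries, 1 point per library, for the 5 rows (filled circles) and for the coding genes opposite (open squares), with an open triangle at 1 for a row listed at 0. Each filled circle lies above every open square, from 2330 FPKM for AT5G64572 in WT heat down to 71.2 FPKM for CWLP in miR164OE heat.

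The first comparison, WT heat with WT control, asks how the rows stood after 5 days of heat in the wild type. Among the structural proteins, the row opposite CWLP in WT heat was at 0.433 times its control value (-1.21 on the log2 scale), and that opposite AGP21 at 0.637 times (-0.65). The row opposite the xylosidase gene XYL4 was at 0.394 times (-1.34), and that opposite the cutin gene CYP86A2 at 0.464 times (-1.11). The row opposite EXT3 went the other way, at 1.76 times its control value (0.82).

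Of the 5 rows, 3 were at least 2-fold lower in WT heat and 0 were 2-fold higher. In the table, 21.7% of the 10488 rows whose mean reached 1 FPKM were 2-fold lower and 29.8% were 2-fold higher. Among the 199 rows whose mean reached 1000 FPKM, which are closer to the 5 rows in level, 35.2% were 2-fold lower and 8.54% higher. The median difference was -1.11 over the 5 rows, 0 over all rows passing 1 FPKM and -0.64 over those passing 1000 FPKM. All 5 passed both limits.

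The calls depend on how libraries are scaled. With the nuclear rows brought to a common sum in every library, the median of all rows in this comparison moved from 0 to 0.70, and none of the 5 rows was 2-fold lower. On that scale the rows opposite CWLP, XYL4 and CYP86A2 differed by -0.43, -0.56 and -0.33, that opposite AGP21 by 0.13 and that opposite EXT3 by 1.60. The row opposite EXT3 was then 2-fold higher, which it was not as deposited. Relative to the median of all rows, the row opposite EXT3 was above and the other 4 were below, on this scale and as deposited.

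The coding rows of the same genes did not follow a common pattern in WT heat. CWLP, EXT3 and XYL4 differed by -0.14, 0.29 and 0.02 on the log2 scale, AGP21 by -0.66 and CYP86A2 by -1.12. The last was the only coding row of the 5 that passed 2-fold, on about 15.0 and 7.15 fragments. On the scale with nuclear rows at a common sum CYP86A2 differed by -0.43 and EXT3 by 1.003, so that a different coding row passed.

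In miR164OE, the comparison of heat with control repeats the question in the overexpressing line. The row opposite CWLP was at 0.398 times its control value (-1.33), and that opposite CYP86A2 at 0.393 times (-1.35). The rows opposite XYL4, EXT3 and AGP21 were at 0.654, 0.701 and 0.791 times their control values (-0.61, -0.51 and -0.34). All 5 rows were thus lower in the heat library, and 2 of them passed 2-fold.

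Against these 2 rows, 17.2% of all rows passing 1 FPKM were 2-fold lower in miR164OE heat and 32.5% were higher. Of the rows passing 1000 FPKM, 37.2% were lower and 7.54% higher. The median was -0.61 over the 5 rows, 0.25 over all rows and -0.71 over the 199 abundant rows. The upper quartile of the abundant rows was -0.127, so most of them were also lower in the heat library. With nuclear rows at a common sum, the median of all rows was 1.09 and none of the 5 rows passed 2-fold in either direction. The rows opposite CWLP and CYP86A2 then differed by -0.39 and -0.41, and those opposite XYL4, EXT3 and AGP21 by 0.33, 0.43 and 0.60. The direction for the latter 3 thus turned, while all 5 stayed below the median of all rows.

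The coding rows in miR164OE were higher in the heat library for 4 of the 5 genes. CWLP and EXT3 differed by 1.57 and 2.23, CYP86A2 by 0.73, and AGP21 went from 0 to 5.12 FPKM, while XYL4 differed by -0.11. As deposited, the coding row and the row opposite pointed in opposite directions for CWLP, EXT3, AGP21 and CYP86A2, and both were lower for XYL4. For 3 of these coding rows the direction lay within the counting error of estimated fragments. Their 95% intervals included 0, at -0.78 to 2.53 for CYP86A2, -0.48 to 0.25 for XYL4 and from -3.36 without an upper limit for AGP21. Those of CWLP (0.86 to 2.44) and EXT3 (0.89 to 4.90) did not. Once nuclear rows were at a common sum, all 5 coding rows were higher in the heat library, and the directions stayed opposite for CWLP (2.48 and -0.39) and CYP86A2 (1.55 and -0.41). For EXT3 (3.08 and 0.43), AGP21 and XYL4 (0.82 and 0.33) they were then the same.

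**Figure D3:**
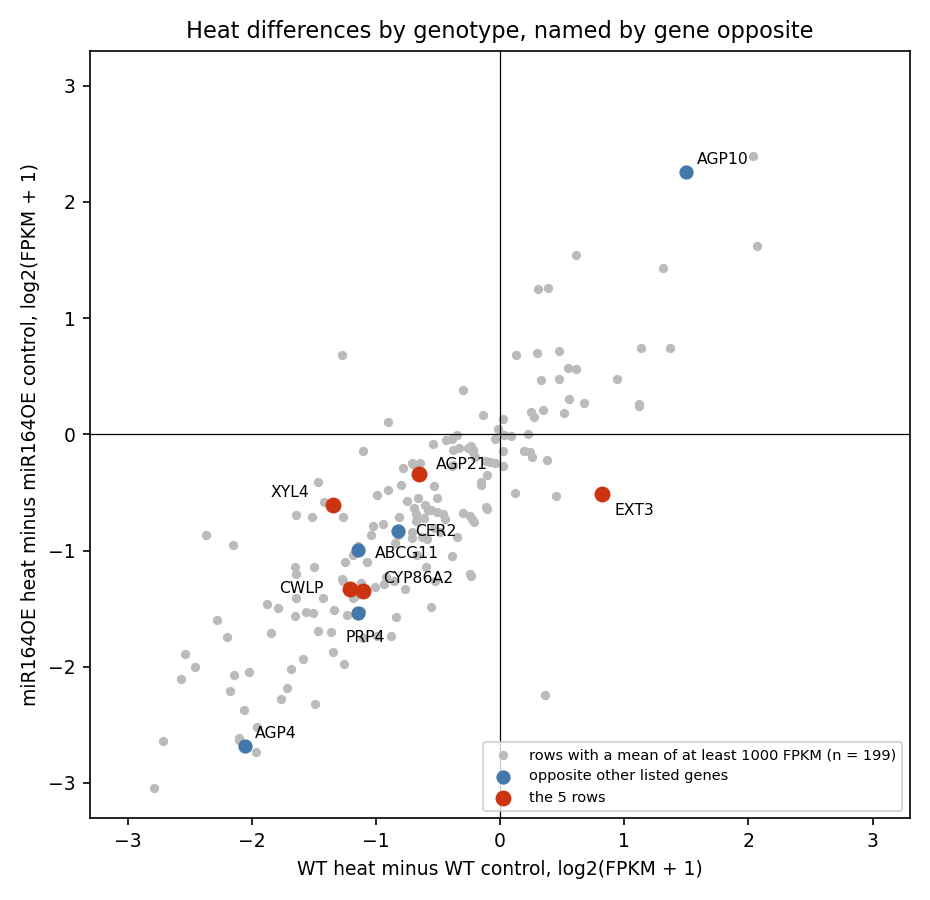
Heat differences on the log2(FPKM + 1) scale in WT (x axis) and miR164OE (y axis) for rows averaging at least 1000 FPKM (grey, 199 rows, 14 of them outside the plotted range), the 5 rows (red) and the other abundant rows opposite listed genes (blue), named by the gene opposite. The row opposite EXT3 lies at 0.82 and -0.51, and the other 4 red points are below 0 on both axes.

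**Figure D4:**
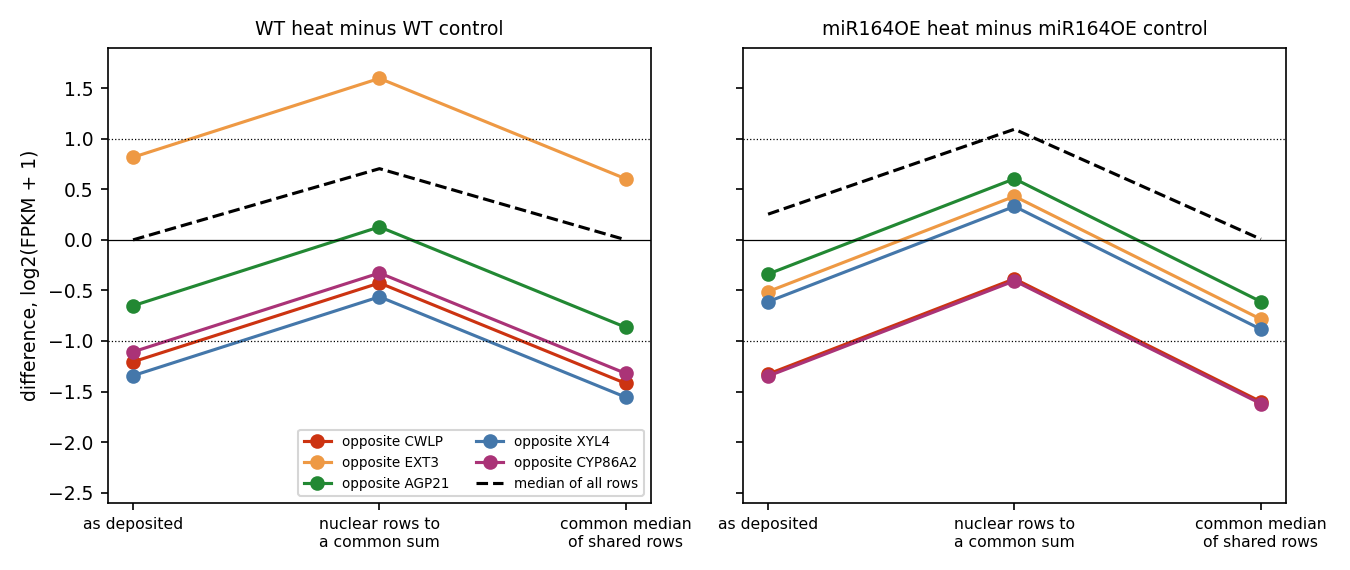
Heat differences of the 5 rows on the log2(FPKM + 1) scale in WT (left) and miR164OE (right) under 3 scalings, with the median of all rows passing 1 FPKM as a dashed line and dotted lines at 2-fold. Bringing nuclear rows to a common sum shifts every row up, so that the row opposite CWLP moves from -1.21 to -0.43 in WT.

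Without heat, miR164OE was compared with WT to ask how the rows stood in the overexpressing line. The row opposite EXT3 was at 2.58 times the WT value in miR164OE control (1.36 on the log2 scale), the only one of the 5 past 2-fold. The other rows were near the WT value, at 0.819 times for XYL4, 0.896 for CWLP, 1.08 for AGP21 and 1.17 for CYP86A2, each named by the gene opposite. In the table, 16.8% of the rows passing 1 FPKM were 2-fold higher and 18.9% 2-fold lower in miR164OE control. Among the 199 abundant rows these shares were 2.51% and 1.01%. Of these abundant rows, 194 had a lower difference than AT1G21313 and 4 a higher one.

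The call for AT1G21313 held with nuclear rows at a common sum (1.30) and with a common median (1.40). The EXT3 row itself differed by -0.997 between the same libraries, from 9.86 to 4.44 FPKM. This rests on about 8.20 and 3.15 fragments, and its 95% counting interval, -3.73 to 0.87, included 0. The repeated windows of AT1G21313, described above, are the same in every library, and their part in the difference was not tested.

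After heat, no row of the 5 differed 2-fold between the genotypes. The row opposite EXT3 was at 1.03 times the WT heat value in miR164OE heat, and that opposite CYP86A2 at 0.989 times. Those opposite AGP21 and XYL4 were at 1.34 and 1.36 times (0.43 and 0.44 on the log2 scale), and that opposite CWLP at 0.824 times (-0.28). In this comparison 19.6% of rows passing 1 FPKM were 2-fold higher and 13.6% lower, and 3.52% and 1.51% of the abundant rows.

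**Figure D5:**
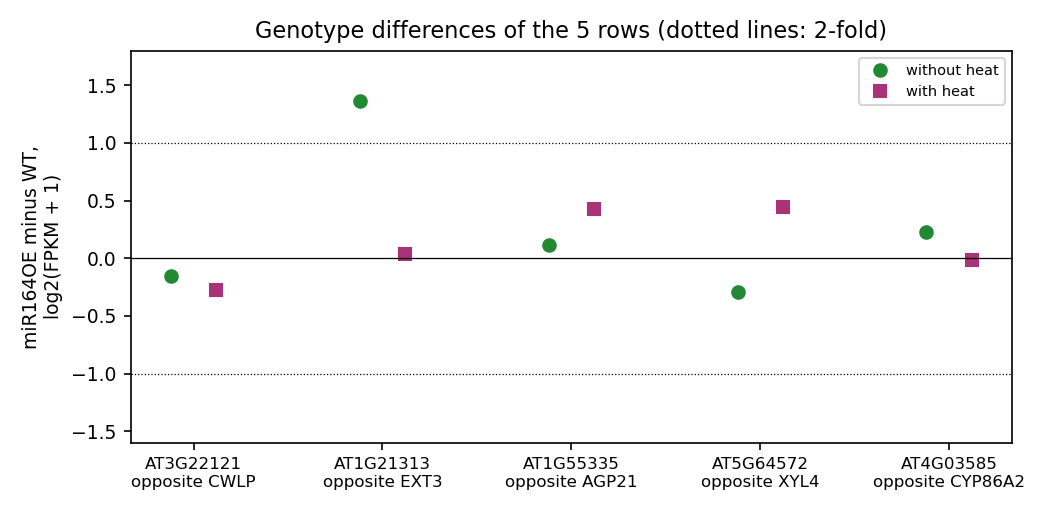
Difference of miR164OE from WT on the log2(FPKM + 1) scale for the 5 rows, without heat (circles) and with heat (squares), with dotted lines at 2-fold. AT1G21313, opposite EXT3, stands at 1.36 without heat and 0.04 with heat, and no other point passes a dotted line.

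The heat difference of miR164OE minus that of WT was -1.33 for AT1G21313, which was higher after heat in WT and lower in miR164OE. For the rows opposite XYL4 and AGP21 it was 0.73 and 0.31, meaning that the heat library was less far below its control in miR164OE, and for those opposite CYP86A2 and CWLP it was -0.24 and -0.12. AT1G21313 was the only one of the 5 past 2-fold in this difference. Over rows passing 1 FPKM, 22.3% were 2-fold lower and 27.7% 2-fold higher in it, against 3.02% and 3.52% of the abundant rows. Of the 199 abundant rows, 5 had a lower value than AT1G21313. Because WT control and miR164OE control enter both the genotype and the heat differences, the values of AT1G21313 across comparisons are not separate observations.

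Profiles over the 4 libraries were compared among the 199 rows averaging at least 1000 FPKM, by the Euclidean distance between log2(FPKM + 1) values centred on each row's own mean. Closest to AT3G22121 were AT3G01505, opposite EMB3119 (distance 0.114), AT3G09905, opposite CSP41A (0.121), and AT4G20362, opposite RABE1b (0.144). Closest to AT4G03585 were rows opposite AT1G06760 (0.0856), AT4G16980 (0.122) and the light-harvesting gene LHB1B2 (0.127). The row nearest to AT5G64572 lay opposite AT5G66720 (0.0915), and that nearest to AT1G55335 opposite AUD1 (0.197). AT1G21313 had no row as close, since its nearest, AT3G07835 opposite the glucosinolate transporter gene GTR1, was at 0.599. With 4 libraries many rows share such a profile, and nothing follows from it on shared function.

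To place the 5 rows among other wall and cuticle genes, rows lying opposite 148 listed genes in 8 groups were collected, taking rows with at least 100 exon bases opposite exons of a listed gene. There were 22 such rows, the 5 included, and 10 of the 22 had a mean of at least 1000 FPKM. These 10 were the same that lay with all bases inside exons of the gene opposite. No row lay opposite any of the 20 listed expansins, proteins that loosen the wall.

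Of the 5 abundant rows that are not members, 4 were lower after heat in both genotypes. AT5G10435, opposite the arabinogalactan protein gene AGP4, had 1988 FPKM without and 477 with heat in WT, and 2140 and 333 in miR164OE (-2.06 and -2.68 in WT and miR164OE). AT4G38775, opposite the proline-rich protein gene PRP4, had 1688, 762, 2061 and 708 FPKM in the same order (-1.15 and -1.54). AT1G05337 lay opposite ABCG11, a transporter of cuticle lipids, with 2406, 1089, 1895 and 950 FPKM (-1.14 and -0.995).

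AT4G07275, opposite the wax gene CER2, had 2753 FPKM without and 1559 with heat in WT, and 2659 and 1489 in miR164OE (-0.82 and -0.84). AT4G09035, opposite the arabinogalactan protein gene AGP10, was the exception, with 1228, 3474, 1097 and 5234 FPKM in the same order (1.50 and 2.25). It was the only row of the 10 that was 2-fold higher after heat in either genotype. Together 8 of the 10 were lower in WT heat, 6 of them 2-fold, and 9 of the 10 were lower in miR164OE heat, 4 of them 2-fold. These counts include the 5 rows already described. Of the 199 abundant rows, 35.2% were 2-fold lower in WT heat and 37.2% in miR164OE heat, so the count in miR164OE was near that share. At any size most abundant rows were lower too, since their upper quartile was -0.029 in WT and -0.127 in miR164OE. The 2-fold count in WT, 6 of the 10, was above its share. Whether lower rows are a trait of rows opposite wall and cuticle genes was not tested.

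Of all 22 rows opposite listed genes, 18 passed 1 FPKM. In WT heat 7 of these were 2-fold lower and 3 higher, and in miR164OE heat 6 were lower and 4 higher. Over all rows passing 1 FPKM, 21.7% were lower and 29.8% higher in WT, and 17.2% lower and 32.5% higher in miR164OE. Over the abundant rows these shares were 35.2% and 8.54% in WT and 37.2% and 7.54% in miR164OE. With nuclear rows at a common sum, where 19 rows passed, the split turned to 2 lower and 6 higher in WT and to 2 lower and 6 higher in miR164OE. Without the 5 rows, 13 passed, with 4 lower and 3 higher in WT and 4 lower and 4 higher in miR164OE. Counts of 3 or 4 rows rest partly on low rows, such as that opposite BXL7, listed at 0 in WT control and at 60.4 FPKM in WT heat.

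The own rows of the listed genes were low, and 89 of the 148 passed 1 FPKM. In WT heat 23 were 2-fold lower (25.8%) and 19 higher (21.3%), against 21.7% lower and 29.8% higher over all rows. The median was -0.04, beside 0 over all rows. In miR164OE heat 8 were lower (8.99%) and 27 higher (30.3%), against 17.2% and 32.5% of all rows, with a median of 0.26 beside 0.25 over all rows. With nuclear rows at a common sum, 8 were lower and 30 higher in WT and 4 lower and 47 higher in miR164OE. With a common median the split in miR164OE was 11 lower and 22 higher.

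Among own rows of extensins and proline-rich proteins, 3 of 10 were 2-fold lower in WT heat and 0 higher, and in miR164OE 5 were higher and 0 lower. Beside this and the arabinogalactan protein counts, the shares over all rows were 21.7% lower and 29.8% higher in WT, and 17.2% and 32.5% in miR164OE. Higher calls in miR164OE depend on the pseudocount, since over all 89 own rows a pseudocount of 5 took them from 27 to 9. PRP4 was the highest of them, with 111 FPKM without and 197 with heat in WT, and 95.5 and 190 in the overexpressor, while the row opposite PRP4 was lower in both heat libraries. Own rows of arabinogalactan proteins were 2-fold lower in 5 of 22 and higher in 5 in WT, and lower in 2 and higher in 5 in miR164OE. FLA13, a fasciclin-like member, was at 140 FPKM without and 54.8 with heat in WT, and at 108 and 69.8 in miR164OE.

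For wall glycosidases, 4 of 9 own rows were 2-fold lower and 1 higher in WT heat, and 3 lower and 1 higher in miR164OE heat. For these and the cutin genes the shares over all rows were again 21.7% lower and 29.8% higher in WT, and 17.2% and 32.5% in miR164OE. BXL1, a relative of XYL4, went from 35.6 to 13.6 FPKM with heat in WT and from 35.8 to 16.4 in miR164OE. Of the cutin genes 4 of 12 were lower and 2 higher in WT, and 1 lower and 2 higher in miR164OE. MYB106, a regulator of cuticle formation, went from 133 to 58.6 FPKM in WT, and stood at 84.8 and 81.8 in miR164OE.

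In the remaining groups, 3 of 15 own rows of xyloglucan endotransglucosylases were lower and 7 higher in WT heat, with 1 lower and 4 higher in miR164OE. XTH27 was the highest of them, at 81.0 FPKM without and 45.6 with heat in WT, and at 60.8 and 57.3 in miR164OE. For cellulose synthesis 1 of 7 was lower and 0 higher in WT, and 0 lower and 4 higher in miR164OE, with CESA4, a secondary wall cellulose synthase, at 42.3 FPKM without and 48.2 with heat in WT, and at 34.4 and 40.3 in miR164OE. Of 8 expansins 1 was lower and 3 higher in WT and 0 lower and 6 higher in miR164OE, and of 6 wax genes 2 were lower and 1 higher in WT and 1 lower and 0 higher in miR164OE. With 6 to 15 rows in each group, these counts stand beside 21.7% lower and 29.8% higher over all rows in WT, and 17.2% and 32.5% in miR164OE. Among the expansins called higher in miR164OE, the 95% counting intervals of EXPA1, EXPA3, EXPA4, EXPA10 and EXPB3 included 0, such as -1.78 to 6.94 for EXPA1. That of EXLA1, from 0.53 without an upper limit, did not. In miR164OE, 1 fragment on 1 kb was worth 2.33 FPKM without and 1.21 with heat, and the part of this in the calls was not tested.

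Tissue markers were read from own rows beside these results. The 5 green tissue markers summed to 441 FPKM without and 171 with heat in WT, and to 340 and 234 in miR164OE, with 0 of 5 at 0 in all libraries. The 8 epidermis markers summed to 49.8, 49.7, 36.5 and 113 FPKM in the same order, and 6 of them passed 1 FPKM. Of these 6, 3 were 2-fold lower and 0 higher in WT heat (median -1.06), 2 higher and 1 lower in miR164OE heat (median 0.84), and 4 lower and 0 higher in miR164OE control against WT control (median -1.57). Counting intervals of such low rows are wide, as for the heat differences of FDH, at -4.15 to 0.45 in WT and -1.53 to 4.16 in miR164OE. Of 7 root markers, 5 were listed at 0 in all 4 libraries (EXPA7, EXPA18, RHD6, COBL9 and CASP1), and the list summed to 21.1, 22.6, 24.5 and 41.7 FPKM. As deposited, green tissue markers were lower in both heat libraries, as were 4 of the 5 rows. Rescaled to a common sum of nuclear rows, the green tissue markers were at 350 and 233 in WT and at 259 and 341 in miR164OE, so that the direction in miR164OE turned. On that scale the epidermis markers summed to 39.4 without and 67.6 with heat in WT, and to 27.8 and 165 in miR164OE. The part of these markers in the differences of the 5 rows was not tested.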

How the data were processed

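Values were the FPKM that the authors deposited for 32823 rows in 4 libraries. The tools bcl2fastq 2.1.7, TopHat and Cufflinks and the build TAIR10 are named per the submitters' processing notes, and RNA was prepared with a strand-specific Agilent kit per the labels' protocols. Versions of TopHat and Cufflinks, the annotation, the strand setting and the depth were not given in the sources used here. Cufflinks splits fragments among overlapping rows by its own model, which bears on every value here.

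Row codes were matched to exons of a TAIR10.1 RefSeq annotation (32538 rows matched). Differences were taken as log2(FPKM + 1), which understates changes of low rows, with no test, since each group held 1 library. Counts used rows whose mean reached 1 FPKM. The FPKM worth of 1 fragment was the mode of FPKM times length over rows of 800 to 2500 bases without an overlapping gene and under 6 FPKM. Alternatives were pseudocounts of 0.1 and 5, other row minimums and 2 rescalings. Python 3.11.15, pandas 2.3.3, numpy 2.4.6, scipy 1.17.1 and matplotlib 3.10.9 were used.

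The members and gene lists were chosen with earlier results of these data known. Named were the 5 rows, the coding genes opposite them, the 10 highest rows opposite listed genes, up to 3 own rows per list by mean FPKM (not all are printed) and the 3 nearest profiles per row. The row opposite BXL7 and individual root markers were named after their values were seen.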

Additional observations from a re-analysis of the deposited data

Results flagged for a closer look

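The row AT1G21313, opposite EXT3, differed after heat by 0.82 on the log2 scale in WT and by -0.51 in miR164OE. It stood out because its heat differences had opposite signs in the genotypes, each beyond the counting error of its estimated fragments. It was the only one of 37 named rows to do so, the nearest profiles not being among these 37. Low rows could hardly pass, since their intervals are wide, such as -4.36 to 2.35 for the AGP21 row in WT. Opposite signs of any size were not particular to this row. Of the 199 abundant rows, 13 were higher in WT heat and lower in miR164OE heat at any size, AT1G21313 included, and 5 the reverse. With a limit of 0.5 on the log2 scale in each genotype, 2 of the 199 were higher in WT heat and lower in miR164OE heat. They were AT1G21313, whose -0.51 barely passed, and AT5G64395, at 11.5 and -10.7. Each sign of AT1G21313 rests on 1 library per group, and the difference between the genotypes was not tested. With nuclear rows at a common sum the values were 1.60 and 0.43, so the signs no longer differed.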

How the results depend on the processing

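The median differences of the 5 rows under pseudocounts of 0.1 and 5 stayed within the counting interval of the main value in all 5 comparisons. With nuclear rows at a common sum the median heat difference of the 5 rows was -0.33 in WT and 0.33 in miR164OE, the genotype difference with heat 0.14 and the difference of heat differences 0.041. With all rows at a common median, the heat medians were -1.32 and -0.88 and the difference of heat differences -0.18. No single row called at 2-fold as deposited changed its sign under any of these 4 settings. With nuclear rows at a common sum, however, the calls after heat were lost, and AT1G21313 gained a 2-fold higher call in WT heat (1.60).

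For rows opposite listed genes, nuclear rows at a common sum gave 6 higher and 2 lower in WT and 2 lower in miR164OE. Requiring 50% of a row to lie opposite gave 1 higher in WT and 2 in miR164OE. For own rows of listed genes, a pseudocount of 5 gave 6 higher and 14 lower in WT and 9 higher and 1 lower in miR164OE. Nuclear rows at a common sum gave 30 and 8 in WT and 47 and 4 in miR164OE. A row minimum of 5 FPKM gave 4 and 13 in WT and 11 and 4 in miR164OE, over 45 rows instead of 89. The causes were not tested, apart from the fewer rows under the last limit.

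No paired analysis was possible because each group held 1 library. Depth is known only by estimate, which limits the coding rows: the AGP21 row rests on fewer than 3 fragments in each library.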
